A study of Mus musculus with 8 samples.

Results

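The genes described here encode the Mediator complex, TFIID and the other general transcription factors, the subunits of RNA polymerase II, and the kinases and SPT factors that act while the polymerase elongates. They were chosen by symbol from the authors' deposited table (names beginning with Med, Taf or Supt and a digit, with Gtf2, or with Polr2a to Polr2m, plus Ccnt1, Ccnt2, Ccnc, Ccnh and the kinases Cdk7, Cdk8, Cdk9, Cdk12, Cdk13 and Cdk19), which gave 96 of its 15540 genes. No measured value enters this symbol rule, but the group was proposed with results of the same table known, so its calls are given as a description and support nothing beyond themselves.

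RNA came from tongue epithelium of mice on the C57BL/6 strain with the transgenes K14-rtTA and TRE-FLBmi-1, together KrTB. The transactivator is under the promoter of keratin 14, a keratin of basal keratinocytes, and turns on the Bmi-1 construct when doxycycline is present. There were 4 KrTB+DOX libraries, from mice given doxycycline at 2 mg/mL in water, and 4 KrTB libraries, from mice given water. Both groups carry both transgenes, and no group given the agent without transgenes was analysed here, so doxycycline and the construct cannot be told apart. The sources used here do not give the age of the mice. All fold changes are KrTB+DOX over KrTB, a direction read from Bmi1 itself, at a log2 fold change of 5.42 per the authors' deposited table.

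Transcription of protein-coding genes begins when TFIID, built from the TATA-binding protein and its associated factors (TAFs), settles on a promoter and TFIIA, TFIIB, TFIIE, TFIIF, TFIIH and RNA polymerase II join it. Mediator links DNA-bound activators to this assembly through its head, middle and tail, while a separable kinase module regulates that contact. After initiation the polymerase pauses, and SPT4 and SPT5 take part in this pause. The kinase P-TEFb, made of CDK9 and cyclin T, releases the polymerase into elongation. These complexes work in every cell. In mouse keratinocytes the Mediator subunit MED1 is also known as a coactivator of the vitamin D receptor, which acts in epidermal differentiation. BMI1, in contrast, belongs to Polycomb repressive complex 1, which silences genes through chromatin.

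Transcripts of this machinery differed by small amounts between the groups. At an adjusted p under 0.05 (limma's moderated test, adjusted over all genes by the Benjamini-Hochberg method), 2 of the 96 genes were higher in KrTB+DOX and 0 were lower per the authors' deposited table. That is 2.08% of the 96, against 8.13% of all 15540 genes, made of 3.82% higher and 4.31% lower. At an unadjusted p under 0.05, 15 of the 96 were higher and 1 was lower, or 16.7%, against 25.2% of all genes (12.3% higher and 13.0% lower). Small positive values were common, since 67 of the 96 (69.8%) lay above 0, against 48.8% of all genes. Their median log2 fold change was 0.06 and that of all genes -0.01. Only Med12l and Taf4b lay more than 0.5 from 0, or 2.08% of the 96. The share was 13.5% of all genes and 9.53% of all genes with a mean in the range of the 96.

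These small values were measured with fair precision. The standard error (SE), taken as the fold change divided by the moderated t, had a median of 0.08 on the log2 scale over the 96 genes and of 0.12 over all genes. At that median a log2 fold change of 0.32, or 1.25-fold, would have been needed to pass. The 95% interval, which is not adjusted for the number of genes, lay wholly within a 1.5-fold change of no difference for 92 of the 96 genes, against 63.2% of all genes. It lay within a 1.2-fold change for 42 of the 96 (43.8%), against 18.6% of all genes. Among all genes with a mean in the range of the 96, these shares were 74.0% within 1.5-fold and 21.8% within 1.2-fold. The 4 genes with an interval reaching beyond 1.5-fold were Taf4b, Med12l, Med18 and Taf5, all with a mean under 3 log2 CPM (library-scaled read counts). The table has no column per library, so neither a level for each group nor the overlap of libraries can be given.

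Each of the 2 genes that passed has a paralog with a higher mean level that did not pass. Ccnt1 encodes cyclin T1, the partner through which CDK9 forms P-TEFb. It rose 1.24-fold in KrTB+DOX per the authors' deposited table (a log2 value of 0.31, SE 0.06, 95% interval 0.17 to 0.44, adjusted p = 0.0175, mean 5.62 log2 CPM). Ccnt1 (ENSMUSG00000011960.12) lies on chromosome 15 of GRCm38 from 98538689 to 98570923 on the minus strand. Its promoter is shown beside that of its relative Ccnt2, on chromosome 1, because only the first of this pair passed. Ccnt2 encodes cyclin T2, which also partners CDK9, and stood at 0.05 (SE 0.06, 95% interval -0.10 to 0.19, adjusted p = 0.686) per the authors' deposited table. Per kilobase of merged exons the mean level was 2.42 log2 CPM for Ccnt1 and 3.01 log2 CPM for Ccnt2. The windows surround the starts annotated by RefSeq on GRCm38.p6, which for Ccnt1 lies inside the GENCODE gene, chr15:98567687-98567986 (minus strand) and chr1:127773914-127774213 (plus strand), written 5′ to 3′. Capitals mark the GC box GGGCGG, the CCAAT box and the ETS core CCGGAAG on either strand.
Ccnt1: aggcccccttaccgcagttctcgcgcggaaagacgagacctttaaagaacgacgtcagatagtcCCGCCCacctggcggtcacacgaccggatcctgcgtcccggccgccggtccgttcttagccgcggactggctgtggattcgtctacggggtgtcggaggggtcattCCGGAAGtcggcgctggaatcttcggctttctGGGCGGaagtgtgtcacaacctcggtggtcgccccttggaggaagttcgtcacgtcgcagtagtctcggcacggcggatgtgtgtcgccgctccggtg
Ccnt2: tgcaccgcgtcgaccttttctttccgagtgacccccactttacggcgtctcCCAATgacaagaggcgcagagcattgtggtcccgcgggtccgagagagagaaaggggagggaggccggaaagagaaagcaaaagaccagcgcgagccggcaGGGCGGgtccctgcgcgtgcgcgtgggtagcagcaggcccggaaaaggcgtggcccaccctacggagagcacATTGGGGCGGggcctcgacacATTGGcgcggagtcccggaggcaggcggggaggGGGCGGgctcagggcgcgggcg

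The Ccnt1 window held 2 GC boxes and 1 ETS core and no CCAAT box. The ETS core lay 80 bases before the annotated start and the GC boxes 186 and 48 bases before it. The Ccnt2 window held 3 GC boxes and 3 CCAAT boxes but no ETS core, and in 1 place a CCAAT box and a GC box share a base. Neither window held TATAAA or the E-box CACGTG. Over 99 windows of the 83 genes of this group with an entry, 33.3% held the ETS core, against 15.3% of the windows of all genes in the table and 8.86% of all windows in the reference. The GC box was in 66.7% of the group's windows and in 59.4% of those of all genes in the table. For CCAAT the shares were 34.3% and 36.9%, for TATAAA 11.1% and 8.05%, and for CACGTG 18.2% and 9.44%. These are matches of letters on both strands and were not tested against the fold changes.

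Taf4b was the other gene that passed. It encodes a TFIID subunit related to TAF4 and known in mice for its role in the ovary and testis. Taf4b (ENSMUSG00000054321.7) lies on chromosome 18 of GRCm38 from 14783245 to 14900359 on the plus strand. Its transcript rose by 0.59 on the log2 scale per the authors' deposited table (SE 0.11, 95% interval 0.33 to 0.84, adjusted p = 0.0168, mean 2.73 log2 CPM). Taf4, the widely expressed relative, stood at 0.02 (SE 0.08, 95% interval -0.14 to 0.19, adjusted p = 0.871) per the authors' deposited table. Per kilobase of merged exons the mean was 0.37 log2 CPM for Taf4b and 2.91 log2 CPM for Taf4, so the gene that rose was the scarcer of the pair. The calls of Taf4b and Ccnt1 were lost when tested against a 1.2-fold change (adjusted p = 0.227 for Taf4b and 1.0 for Ccnt1) and with the stricter Benjamini-Yekutieli adjustment (0.172 and 0.179).

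Just outside the threshold stood Med27 (adjusted p = 0.0659), Taf15 (0.0736) and Taf5l (0.0753) per the authors' deposited table, with 1.22-fold, 1.22-fold and 1.24-fold higher values. Med26 (adjusted p = 0.0793), Ccnh (0.0816) and Cdk12 (0.0972) came next per the authors' deposited table. At an adjusted p under 0.10, 7 of the 96 would be higher and 1, Ccnh, lower, against 15.1% of all genes called (7.39% higher and 7.72% lower). At an adjusted p under 0.01 the count was 0 of 96 by limma, against 1.95% of all genes, and against a 1.2-fold change it was 0 of 96, against 1.43% of all genes.

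Mediator genes lay mostly slightly above 0 without a call. Of 33 Mediator genes 0 passed in either direction by limma, against 8.13% of all genes. At an unadjusted p under 0.05 by limma, 5 were higher (15.2%) and 0 lower, against 12.3% higher and 13.0% lower of all genes. Of the 33, 27 lay above 0 (81.8%, against 48.8% of all genes), and the median log2 fold change of the 33 was 0.09. The middle module, which contacts the polymerase, had the highest median of the Mediator modules, 0.12 over 9 genes. Its extreme values were those of Med26, which recruits elongation factors (log2 fold change 0.33, SE 0.10, 95% interval 0.10 to 0.56), and Med9 (-0.03, SE 0.08) per the authors' deposited table. Med1, the nuclear receptor coactivator, stood at 0.00 (SE 0.07, 95% interval -0.15 to 0.16, adjusted p = 0.976) per the authors' deposited table. In the head, Med18 (log2 fold change 0.22, SE 0.19) was highest and the core head subunit Med17 (-0.03, SE 0.08) lowest of 7 genes per the authors' deposited table, and their median was 0.08. For MED27 to MED30, subunits of animal Mediator near the head and tail, the range ran from Med30 at -0.02 (SE 0.10) to Med27 at 0.29 (SE 0.09) per the authors' deposited table.

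The scaffold and tail genes of Mediator had the smallest median SE of its modules, 0.08. Med14, the scaffold on which head, middle and tail are held together, stood at -0.05 (SE 0.09, 95% interval -0.25 to 0.14) and was the lowest of 6 per the authors' deposited table. Med25, a tail subunit bound by activators, was the highest (log2 fold change 0.21, SE 0.08, adjusted p = 0.134) per the authors' deposited table. Of these 6 genes, 4 had an interval within a 1.2-fold change.

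**Figure D1:**
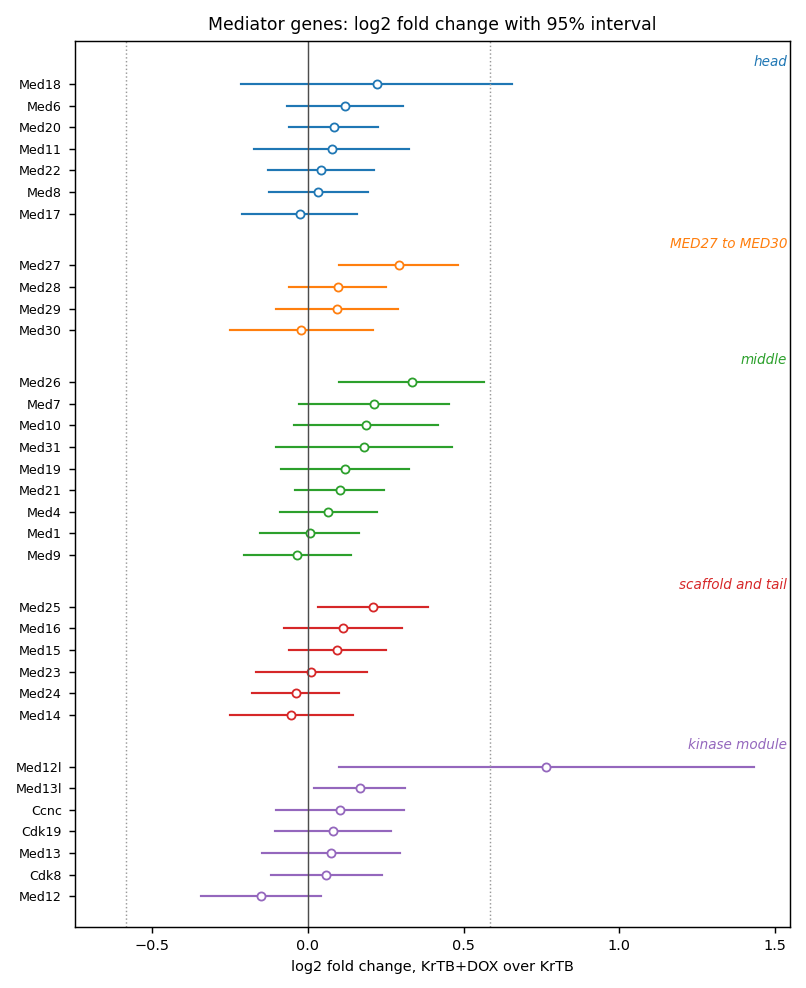
Log2 fold change (KrTB+DOX over KrTB, x axis) of the 33 Mediator genes, by module. Points are the deposited values, bars the 95% intervals, open circles an adjusted p of 0.05 or more, and dotted lines a 1.5-fold change. No gene is filled, and Med12l has the widest bar, 0.10 to 1.43.

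In the kinase module, the kinases and their cyclin stood close to 0. Cdk8 had a log2 fold change of 0.06 (SE 0.08), its relative Cdk19 of 0.08 (SE 0.08) and Ccnc, the cyclin of both, of 0.10 (SE 0.09) per the authors' deposited table. Med12, which activates the kinase, was the lowest of the 7 genes at -0.15 (SE 0.09, adjusted p = 0.305), and its paralog Med12l the highest at 0.77 (SE 0.30, adjusted p = 0.144) per the authors' deposited table. Med12l was the least abundant of the 96 genes per kilobase of merged exons, at -2.58 log2 CPM, against 3.07 for Med12. Its exons share 1948 bases (15.3% of its merged exons) with Igsf10 on the other strand, which stood at -0.27 (adjusted p = 0.384) per the authors' deposited table. Med13, which ties the module to the rest of Mediator, stood at 0.07 (SE 0.10) and Med13l at 0.17 (SE 0.07, adjusted p = 0.148) per the authors' deposited table.

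TFIID genes other than Taf4b did not pass. Among 14 TFIID TAF genes 1 rose and 0 fell, or 7.14%, against 8.13% of all genes. Of the 14, 11 lay above 0 (78.6%, against 48.8% of all genes), and the median was 0.06. Taf1, the largest TAF and a reader of acetylated histones, stood at 0.04 (SE 0.07, 95% interval -0.12 to 0.20) per the authors' deposited table. Taf8 was the lowest at -0.14 (SE 0.08, adjusted p = 0.283) per the authors' deposited table. The WD40 subunit Taf5 had a value of 0.24 with an SE of 0.18 at a low mean of 2.33 log2 CPM per the authors' deposited table. Taf7 stood at -0.07 (SE 0.12) and Taf9b at 0.15 (SE 0.09) per the authors' deposited table, and their relatives Taf7l and Taf9 were not analysed here.

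Some symbols in the group belong to other complexes. Taf5l and Taf6l encode relatives of TAF5 and TAF6 that sit in the SAGA coactivator instead of TFIID. Taf5l stood at 0.31 (SE 0.10, 95% interval 0.10 to 0.53) and Taf6l at 0.06 (SE 0.10) per the authors' deposited table, while Taf6 itself was at -0.02 (SE 0.06). Supt3 was the lowest of the 5 SAGA genes at -0.11 (SE 0.15) per the authors' deposited table. Taf1a, Taf1b, Taf1c and Taf1d encode promoter factors of RNA polymerase I, and Taf15 an RNA-binding protein. Of these 5 genes Taf15 was highest (log2 fold change 0.28, SE 0.09) and Taf1d lowest (-0.07, SE 0.13) per the authors' deposited table. They had 0 calls in either direction by limma, against 8.13% of all genes. At an unadjusted p under 0.05 by limma, 2 were higher (40.0%), against 12.3% of all genes.

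The general factors outside TFIID went both ways. Over 7 genes of TFIIA, TFIIB, TFIIE and TFIIF the median was 0.11, from Gtf2a2 of TFIIA at -0.13 (SE 0.07, adjusted p = 0.248) to Gtf2e1, the large subunit of TFIIE, at 0.23 (SE 0.08, adjusted p = 0.108) per the authors' deposited table. Gtf2a1, the other TFIIA gene, stood at -0.09 (SE 0.08) per the authors' deposited table. TFIIH opens the promoter and phosphorylates the polymerase. Its 7 genes under the symbol rule had a median of -0.02, with Gtf2h4 the highest at 0.17 (SE 0.09) per the authors' deposited table. The TFIIH genes Ercc2 (0.10), Ercc3 (0.05) and Mnat1 (-0.16) fall outside that rule, and none passed, per the authors' deposited table. The TFIIH kinase Cdk7 stood at -0.03 (SE 0.08, 95% interval -0.21 to 0.14) per the authors' deposited table. Ccnh, the cyclin of that kinase, had the lowest value of all 96 genes at -0.28 (SE 0.09, 95% interval -0.47 to -0.08, adjusted p = 0.0816) per the authors' deposited table. The TFII-I genes, which encode signal-responsive factors and no part of the basal assembly, ranged from Gtf2ird2 at -0.12 (SE 0.09) and Gtf2i at -0.11 (SE 0.06) to Gtf2ird1 at 0.19 (SE 0.09) per the authors' deposited table. These 3 are related in sequence, and the sources used here do not say how reads shared between genes were counted.

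**Figure D2:**
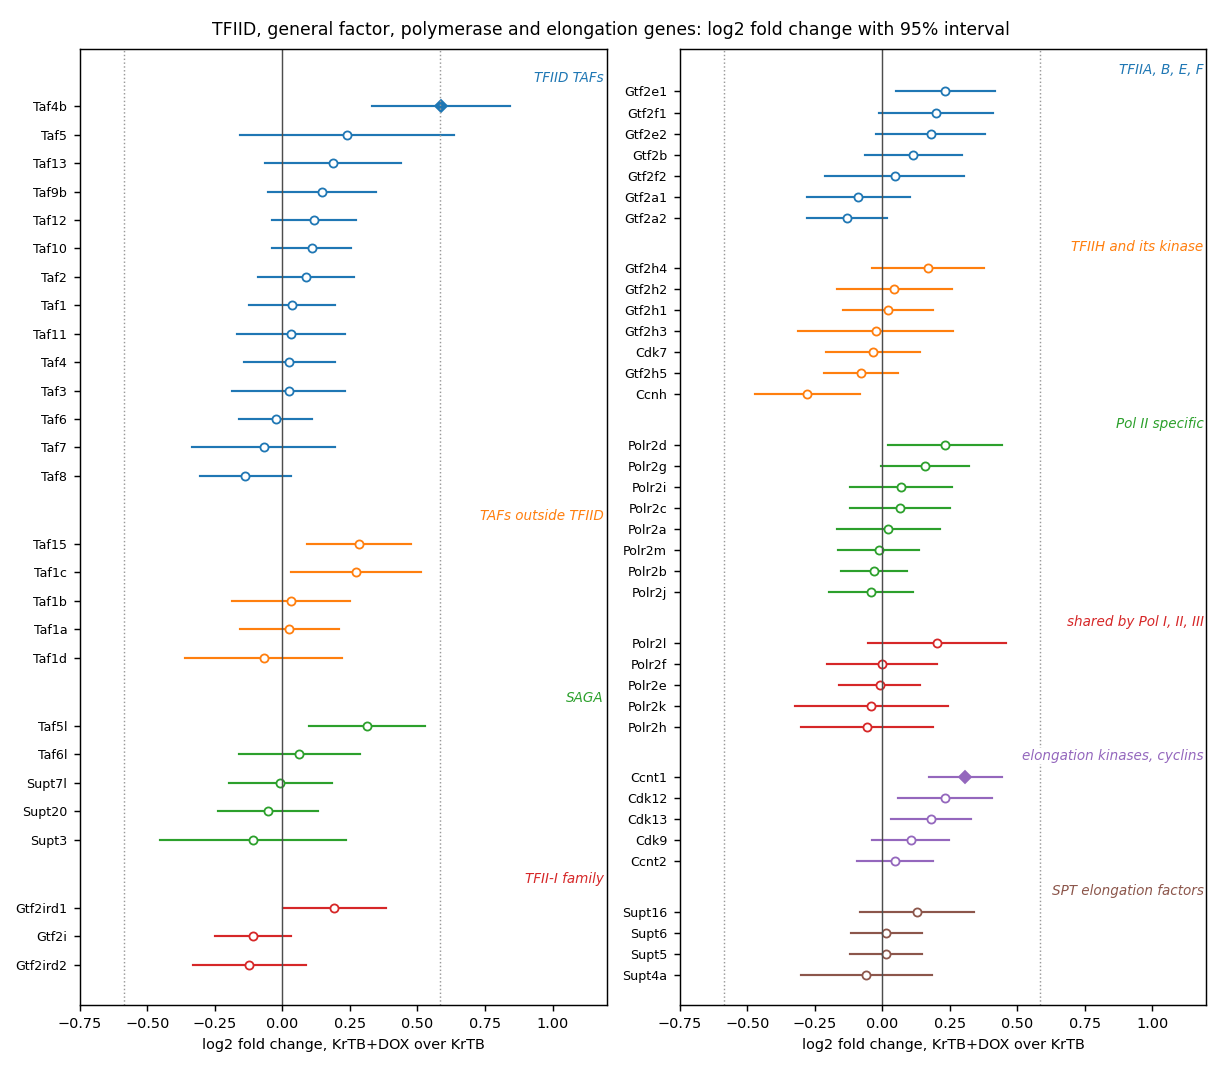
Log2 fold change (KrTB+DOX over KrTB, x axes) of the 63 other genes, by role. Points are the deposited values with 95% intervals, filled diamonds an adjusted p under 0.05 and dotted lines a 1.5-fold change. Taf4b and Ccnt1 are the filled points, and Ccnh lies farthest below 0.

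Genes of the polymerase itself stood near no difference. Over the 12 core subunit genes Polr2a to Polr2l the median was 0.01, and 0 passed in either direction by limma, against 8.13% of all genes. At an unadjusted p under 0.05 by limma, 1 was higher (8.33%), against 12.3% of all genes. All 12 intervals lay within a 1.5-fold change, against 63.2% of all genes. Polr2a encodes the catalytic subunit whose tail carries the heptad repeats that CDK7 and CDK9 phosphorylate. It stood at 0.02 (SE 0.08, 95% interval -0.17 to 0.21, mean 7.02 log2 CPM) per the authors' deposited table. Polr2b, the second large subunit, had the narrowest interval of the 96 genes, -0.15 to 0.09 around a log2 fold change of -0.03 per the authors' deposited table. The highest value of the core subunits was that of Polr2d (0.23, SE 0.09, adjusted p = 0.163), one partner of the detachable stalk, and the other partner, Polr2g, picked after its value was seen, stood at 0.16 (SE 0.07, adjusted p = 0.211) per the authors' deposited table. Polr2j was the lowest of the genes used by polymerase II alone at -0.04 (SE 0.07) per the authors' deposited table. Among 5 subunits that polymerases I, II and III share, 4 lay below 0, from Polr2h at -0.06 (SE 0.11) upward, and Polr2l at 0.20 (SE 0.11) above it per the authors' deposited table. Polr2m, which encodes a factor bound to the polymerase and no core subunit, stood at -0.01 (SE 0.07) per the authors' deposited table.

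The kinases and cyclins of elongation had the highest group median, 0.18 over 5 genes. They held 1 call by limma (20.0%, against 8.13% of all genes), and all 5 lay above 0, against 48.8% of all genes. Cdk9, which encodes the kinase of P-TEFb, stood at 0.10 (SE 0.06, 95% interval -0.04 to 0.25, adjusted p = 0.337) per the authors' deposited table. Cdk12 and Cdk13 encode kinases that act with cyclin K on the polymerase tail during elongation. They stood at 0.23 (SE 0.08, 95% interval 0.06 to 0.41) and 0.18 (SE 0.07, 95% interval 0.03 to 0.33) per the authors' deposited table, and neither passed. The SPT factors had a median of 0.01 over 4 genes. Supt5 of the pausing factor DSIF stood at 0.01 (SE 0.06) with its partner Supt4a at -0.06 (SE 0.11), and the histone chaperones Supt6 at 0.02 (SE 0.06) and Supt16, a subunit of FACT, at 0.13 (SE 0.09) per the authors' deposited table.

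**Figure D3:**
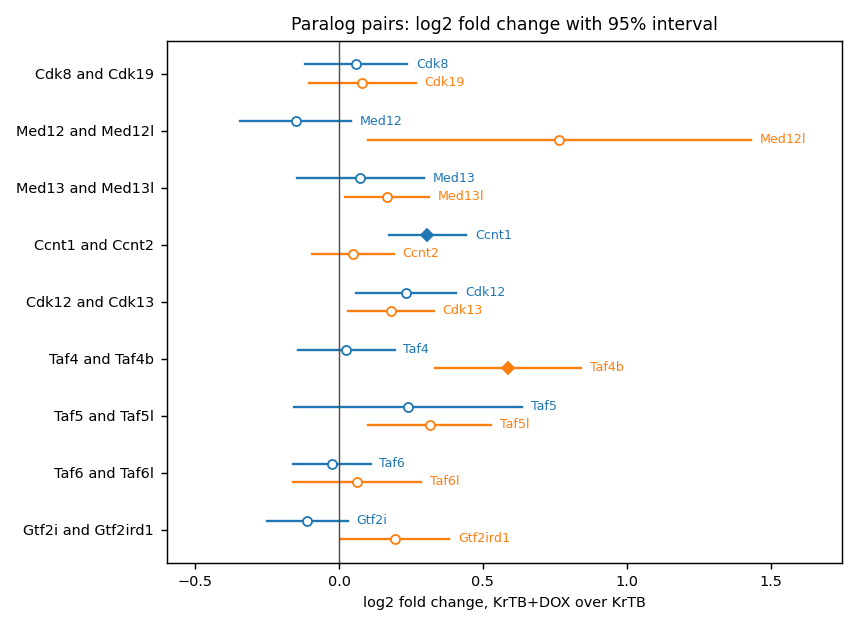
Log2 fold change (KrTB+DOX over KrTB, x axis) of both genes in the 9 pairs with values for each, with 95% intervals; filled diamonds have an adjusted p under 0.05. The intervals of Taf4b (0.33 to 0.84) and Taf4 (-0.14 to 0.19) do not meet, nor do those of Med12l (0.10 to 1.43) and Med12 (-0.34 to 0.04), and those of Cdk8 and Cdk19 nearly coincide.

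Across the pairs of related genes, the differences within a pair could not be tested, because that needs values per library. The interval of Ccnt1 began at 0.17 and that of Ccnt2 ended at 0.19, so these overlap slightly. For Taf5 and Taf5l (0.24 and 0.31 per the authors' deposited table) and for Cdk12 and Cdk13 they overlap for most of their length.

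**Figure D4:**
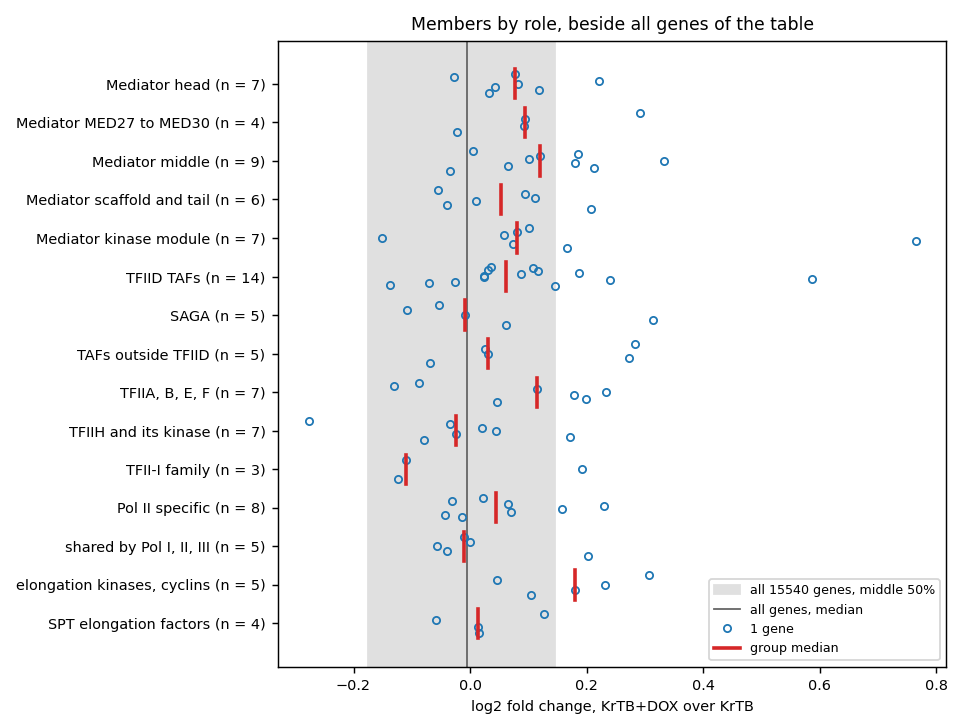
Log2 fold change (KrTB+DOX over KrTB, x axis) of each gene (circles) in the 15 role groups with the group median (red bar); the grey band is the middle 50% of all genes, -0.18 to 0.15, and the grey line their median. Most circles lie in the band, and the elongation kinases and cyclins have the highest median, 0.18.

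Levels per kilobase of merged exons ran from -2.58 log2 CPM for Med12l to 5.68 for Polr2m, with a median of 2.75 against 2.12 over 15389 genes with a length. By this scale the SPT elongation factors had a median level of 4.22 log2 CPM and the TFIID TAFs one of 2.34. For the polymerase II genes outside the shared subunits, Polr2m included, it was 4.07. Such levels are means over both groups, carry no spread between libraries, and depend on which exons are counted as part of a gene.

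Other genes of the pathway, outside the symbol rule, were described in the same way. Of 111 symbols listed for such genes 104 had a value, and 3 rose and 0 fell (2.88%), against 8.13% called among all genes. The symbols without a value include Ints11, Ints13 and Ints14, newer names of Cpsf3l, Asun and Vwa9, which had values. Of the 104, 68 lay above 0 with a median of 0.05, beside 7588 of all 15540 genes (48.8%) with a median of -0.01. Those that rose included, per the authors' deposited table, the SAGA subunit Atxn7l3 (log2 fold change 0.29, SE 0.06, adjusted p = 0.0225), as well as Gtf3c5, a polymerase III factor (0.27, SE 0.07, adjusted p = 0.0497). Tada2b, also of SAGA, had the highest value of these lists at 0.43 (SE 0.11, adjusted p = 0.0501) per the authors' deposited table. The elongation scaffolds Aff1 (0.33, adjusted p = 0.0572) and Aff4 (0.26, adjusted p = 0.0803) did not pass per the authors' deposited table. Eaf2 stood at -0.78 with an SE of 0.34 (adjusted p = 0.181), at a very low mean of -0.935 log2 CPM. Its relative Eaf1, with a mean of 6.19 log2 CPM, stood at 0.19 (SE 0.08, adjusted p = 0.174) per the authors' deposited table. Hexim2, of the family that holds P-TEFb inactive, was the lowest of 11 pausing and P-TEFb genes per the authors' deposited table. It stood at -0.33 (SE 0.18, adjusted p = 0.294) at a low mean of 0.91 log2 CPM. Its relative Hexim1, with a mean of 5.65 log2 CPM, stood at 0.20 (SE 0.08, adjusted p = 0.137) per the authors' deposited table. Among 10 genes for the cyclin K partner and tail phosphatases, Ccnk was the highest at 0.16 (SE 0.08) and Ctdsp2 the lowest at -0.17 (SE 0.06, adjusted p = 0.118) per the authors' deposited table. Integrator ranged from Ints7 at -0.04 to Ints2 at 0.26 (adjusted p = 0.0927), and the PAF1 complex with FACT from Rtf1 at -0.06 to Leo1 at 0.26 per the authors' deposited table. TFIIH and TATA-binding protein partners ran from Mnat1, which assembles CDK7 with cyclin H, at -0.16 (SE 0.09, adjusted p = 0.273), to Btaf1 at 0.19 per the authors' deposited table. Kat2b of SAGA (-0.15), Gtf3a of polymerase III (-0.21) and the cohesin genes Rad21 (-0.09) and Pds5a (0.15) were among the remaining extremes per the authors' deposited table, and none of them passed.

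**Figure D5:**
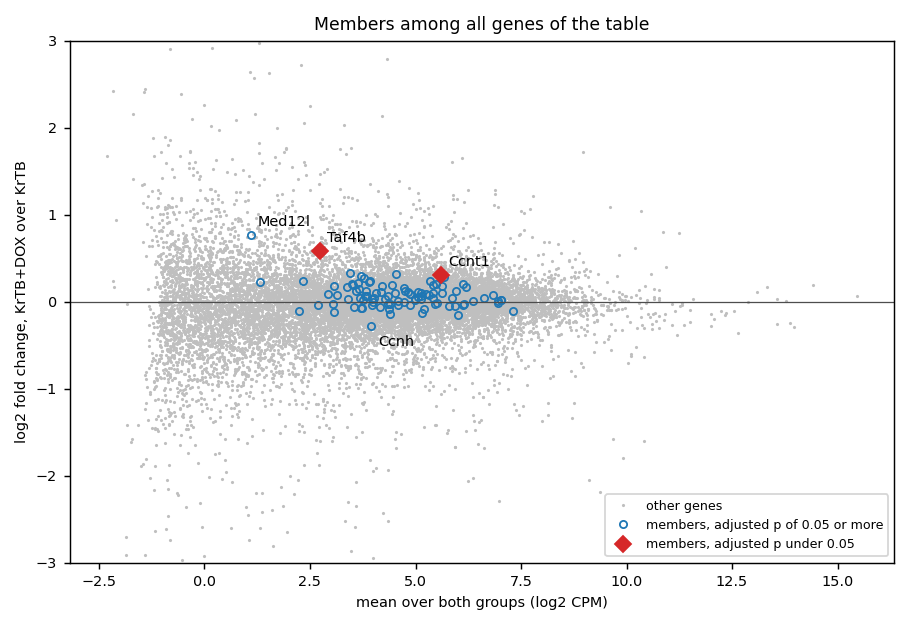
Log2 fold change (KrTB+DOX over KrTB, y axis) against the mean over both groups (log2 CPM, x axis) for all genes in grey and the 96 genes as circles, or diamonds at an adjusted p under 0.05. The axis stops at 3 in either direction, which leaves out 51 other genes. The 96 genes lie between -0.28 and 0.77.

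Keratinocyte markers were expressed, as the epithelium label says, but markers of other cell types were too, and the median of the skeletal muscle markers was above that of the keratinocyte markers. All 11 keratinocyte markers had values, at 4.41 to 13.1 log2 CPM per kilobase with a median of 8.997. The 8 of 8 skeletal muscle markers with values had a median of 10.7 and the 6 of 6 fibroblast markers one of 5.23 on the same scale. By the authors' deposited table, Trp63 and Krt15 were the 2 keratinocyte markers that rose, and 0 fell. Of the 11, 9 lay above 0 and 2 below it. Those 2 were Krt13 (-0.29, adjusted p = 0.228) and Krt4 (-0.25, adjusted p = 0.328), which had the highest mean levels of the 11. By limma's unadjusted p under 0.05, 4 of the 11 were higher (36.4%) and 0 lower, against 12.3% and 13.0% of all genes. Besides the 2 that passed, these were Krt14 (0.80, adjusted p = 0.11) and Krt5 (0.40, adjusted p = 0.181) per the authors' deposited table. Among fibroblast markers 0 rose and 4 of 6 fell, with a median log2 fold change of -1.04. Of all genes, 3.82% rose and 4.31% fell. Muscle markers lay below 0 in 8 of 8 cases (median -0.26) with 0 calls by limma. At an unadjusted p under 0.05 by limma, 3 muscle markers were lower (37.5%), against 13.0% of all genes. Endothelial markers gave 0 higher and 1 lower of 6, and immune markers 0 calls among 5, with 0 at an unadjusted p under 0.05. The part of these shifts in the values of Ccnt1, Taf4b and the other genes was not tested, and in bulk RNA fewer cells of a type and less RNA per cell cannot be told apart.

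Some of these genes overlap others in the annotation. The libraries were stranded, but the sources used here do not give the strand setting of the counting, and whether the overlaps moved any value was not tested. The overlaps named or counted here all lie on opposite strands. Ccnt1 shares 695 exon bases (7.59%) with the antisense transcript 9330020H09Rik, which stood at 0.10 with a mean of 0.10 log2 CPM per the authors' deposited table. Taf4b shares no exon base with an annotated gene. Of the 96 genes, 8 share at least 10% of their exon bases with a protein-coding gene of the table, led by Taf10 with Ilk at 45.9%. For 3 genes the overlapping partner was itself called, namely Igfbp7 (-0.41) beside Polr2b, Dok4 (0.42) beside Polr2c and 4931406C07Rik (-0.49) beside Taf1d, per the authors' deposited table.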

How the data were processed

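Stranded poly(A) libraries of 8 tongue epithelium samples were read as 51 bp pairs, per the labels' protocols. STAR 2.5.2b, HTSeq 0.11.2, cutadapt, bcl2fastq 2.20 and the build GRCm38 stand in the submitters' processing notes, without roles or settings. The one table used is the authors' deposited comparison of 15540 genes with limma's columns, per the file headers: log2 fold change, mean log2 CPM, moderated t (a score), p-value and adjusted p-value. The sources used here do not give the authors' limma version, model or low-count filter, and the depth per library is unknown.

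The SE is the fold change over t, and intervals use the 9.76 degrees of freedom that link the deposited t and p (SciPy 1.17.1, pandas 2.3.3, Python 3.11.15). Recomputed Benjamini-Hochberg values differed from the deposited ones by at most 6.4e-15. Positions, exon lengths and GC content came from GENCODE M21 (GRCm38), in which 15089 symbols matched directly, 300 through a RefSeq synonym and 151 not at all. The count model, DESeq2 and replicate removal that were planned need values per library and could not be run. The procedures were tested on simulated data. Genes, lists and tests were chosen with earlier results of these data known. Named genes are those that passed, the extremes of each list, the paralog pairs, a fixed set of core subunits and the genes nearest the threshold. Some genes of the lists outside the symbol rule are counted but not reported here by name. Alternatives were other thresholds, a test against a 1.2-fold change, a filter at a mean of 1 log2 CPM, centring, removal of a GC and length trend, and Benjamini-Yekutieli adjustment.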

Additional observations from a re-analysis of the deposited data

How the results depend on the processing

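The counts of calls depended on the threshold and the null. With the GC and length trend removed, the medians of all 15 role groups moved by less than the median SE of their genes. That SE is larger than most of these medians, so it is a loose bound. The filter kept all 96 members with unchanged fold changes, and the centring added the same 0.006 to each. The medians could therefore not move further under either. The 2 higher members at the main setting became 0 at an adjusted p under 0.01, 0 against a 1.2-fold change and 0 with Benjamini-Yekutieli adjustment (15 at an unadjusted p under 0.05 by limma), and 7 at an adjusted p under 0.10, where the count of lower members became 1. For the other 104 genes of the pathway the 3 higher became 0, 0, 0 and 7 under those settings, 1 with the GC and length trend removed, and 4 under the mean filter and 4 under the centring, with 0 lower throughout. The filter, the centring and the trend removal each kept 2 higher and 0 lower members. Subtracting the median of all genes changed the sign of 1 uncalled member and removing the trend that of 8, with shifts of at most 0.08 on the log2 scale. No paired analysis was possible because the table has no values per library, and for the same reason no library could be left out and DESeq2 was not run. Depth per library is unknown, so the SE, which was 0.30 for Med12l and 0.05 for Polr2b, is the only measure of precision.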
